A study of Mus musculus with 16 samples.

Results

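The metalloprotease genes and the genes of their inhibitors were followed in kidney and liver RNA of aged mice in which *Fos*, a subunit of the transcription factor AP-1, was targeted. They were taken by symbol: matrix metalloproteinases (Mmp), tissue inhibitors of metalloproteinases (Timp), and the ADAM and ADAMTS proteases, each followed by a number and at most 1 letter. Among the 24984 gene symbols counted, 79 matched, and 13 of these had no read in any library (*Mmp1a*, *Mmp1b*, *Adamts19* and 10 ADAM genes), which left 66 members: 21 MMP, 4 TIMP, 23 ADAM and 18 ADAMTS genes. The 16 libraries came from female wild-type C57BL/6 mice labelled as 24 months old, 4 for each tissue and treatment. The study's methods give that age for the injection and place tissue collection months later, so the mice were older than the label when the RNA was taken. All mice, controls included, received the vector AAV8 by intravenous injection, either with an shRNA that targets *Fos* (group shFos) or with a control shRNA that targets no gene (group NT). No uninjected mice were analysed here, and whole tissue was used, so that fewer cells of a type and less RNA per cell cannot be told apart. The labels do not say which kidney and liver came from the same animal, nor whether same-numbered libraries belong together, and p-values measure the spread between these libraries.

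MMPs are zinc-dependent enzymes that cut collagens, laminins and other proteins of the extracellular matrix, and most are made as inactive precursors. ADAM proteases are membrane-bound and release the outer part of cell surface proteins such as TNF and Notch, while ADAMTS enzymes are secreted and cut procollagens, proteoglycans and von Willebrand factor. TIMPs bind the active site of these enzymes, and TIMP3, which is held in the matrix, inhibits the widest set of them. Collagenase and stromelysin genes such as *Mmp13* and *Mmp3* are textbook targets of AP-1, which binds the 7-base element TGAGTCA.

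The promoter sequences are shown because AP-1 was the factor targeted. In the RefSeq promoter windows of GRCm38.p6, from 250 bases before to 50 bases after a gene start, TGAGTCA was found on either strand in 5.2% of 32851 windows. The members had 46 windows, of 41 genes, and 25 members, among them *Mmp9* and *Mmp2*, had none. The element stood in 7 member windows: those of *Mmp3*, *Mmp7*, *Mmp10*, *Mmp12*, *Mmp13*, *Adam19* and *Adam1b*. Of 8 MMP members of chromosome 9 with a window, these 5 MMP genes held it, and in each of them it began between 35 and 63 bases before the start. In *Adam19* it began 131 bases before the start, and in *Adam1b* 20 bases after it. The related cyclic AMP element TGACGTCA stood in 1.79% of all windows and in 0 of the member windows. A match is a description of the letters and not a bound site. *Mmp7* and *Mmp12* had 2 windows each and *Adam19* had 3, with the element in 1 of them, and positions are counted from that window's start. For *Mmp12* this start lies inside the annotated gene, which begins at base 7344381. Below are the 100 bases before that start of each MMP gene (chr9:7445722-7445821 for *Mmp3*, chr9:7691990-7692089 for *Mmp7*, chr9:7502242-7502341 for *Mmp10*, chr9:7347274-7347373 for *Mmp12* and chr9:7272414-7272513 for *Mmp13*, all on the + strand), with the element in capitals. *Mmp13* carries its reverse complement, and the others carry TGAGTCA as written.
Mmp3: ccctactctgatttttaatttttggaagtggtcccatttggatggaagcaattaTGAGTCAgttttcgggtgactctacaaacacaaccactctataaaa
Mmp7: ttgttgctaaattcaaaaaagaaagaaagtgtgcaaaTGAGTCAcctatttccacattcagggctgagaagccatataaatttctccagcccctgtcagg
Mmp10: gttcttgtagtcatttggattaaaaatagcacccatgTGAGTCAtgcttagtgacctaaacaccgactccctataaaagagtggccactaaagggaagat
Mmp12: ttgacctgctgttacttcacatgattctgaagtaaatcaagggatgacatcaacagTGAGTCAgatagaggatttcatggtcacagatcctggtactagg
Mmp13: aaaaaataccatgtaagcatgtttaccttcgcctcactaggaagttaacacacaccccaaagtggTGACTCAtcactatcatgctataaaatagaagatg

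*Fos* itself was low. In kidney it lay between 4.23 and 6.71 CPM (counts scaled to library size and by TMM factors) in the NT libraries and between 2.30 and 4.12 CPM in the shFos libraries, with no overlap, and its log2 fold change was -0.73 (SE 0.25, edgeR adjusted p = 0.0947). In liver the groups overlapped (1.12 to 3.70 and 1.38 to 2.76 CPM), and the log2 fold change was -0.47 (SE 0.38, edgeR adjusted p = 0.775). Each kidney library held 14194543 to 15534665 counted reads and each liver library 16652150 to 18300277, and a count of 0 allows up to 3 reads, or 0.193 to 0.211 CPM in kidney and 0.164 to 0.180 CPM in liver, for counting error only. The markers of each tissue were high where the labels place them: the summed proximal tubule genes lay between 5343 and 36500 CPM in kidney and between 0.865 and 5.06 CPM in liver, and the summed hepatocyte genes between 43940 and 189700 CPM in liver and between 167.6 and 681 CPM in kidney. The fourth NT library stood apart in each tissue. In kidney it was lowest in 36 of the 54 members with enough reads, its proximal tubule markers summed to 5343 CPM against 14480 to 16250 CPM in the other NT libraries, and its neutrophil markers to 25.5 CPM against 3.50 to 3.88 CPM. In liver its hepatocyte markers summed to 43940 CPM against 119300 to 189700 CPM, its neutrophil markers to 161 CPM against 14.4 to 48.3 CPM, and 9 of 45 members were more than 2 times as high as in any other NT library. Changes within a tissue that these libraries moved by more than 1.5 times are given with and without them, apart from *Timp4* in kidney, for which the library levels are given instead. The kidney calls also depended on shFos replicate 1: by edgeR 0% of all genes tested passed with it and 27.8% without it.

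The control tissues held different inventories. In NT kidney the inhibitors made up most of the members' summed level, and in NT liver the MMPs had the largest share. Counted per length (CPM per kb of exon, scaled over all 16 libraries), the 4 TIMP genes took 66.4% ± 2.55 (SD, n = 4) of the members' sum in NT kidney and 11.6% ± 2.43 in NT liver, the MMP genes 8.08% ± 0.638 and 45.3% ± 3.80, the ADAM genes 18.4% ± 1.75 and 35.7% ± 2.10, and the ADAMTS genes 7.11% ± 0.581 and 7.35% ± 0.245. *Timp3* alone was 53.4% ± 3.40 of the sum in NT kidney, at 146 CPM per kb (108 to 182 over the 4 libraries). *Timp2*, which besides its inhibitor role takes part in activation of pro-MMP2 by MMP14, followed at 29.3 CPM per kb (23.9 to 31.8). *Adam9*, *Adam10* and *Adam15* came next at 14.5, 12.8 and 12.4 CPM per kb, and *Adam15* (9.70 to 13.7) overlapped both *Adam9* (13.3 to 15.8) and *Adam10* (12.3 to 13.25), which did not overlap each other. In NT liver the highest levels were those of *Mmp14*, the membrane-bound collagenase (23.5 CPM per kb, 16.8 to 29.8), *Adam9* (19.2, 17.96 to 20.9), *Mmp19* (15.7, 8.80 to 19.4) and *Adam10* (11.7, 10.2 to 13.0), and the range of each overlapped that of the next in this order.

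**Figure D1:**
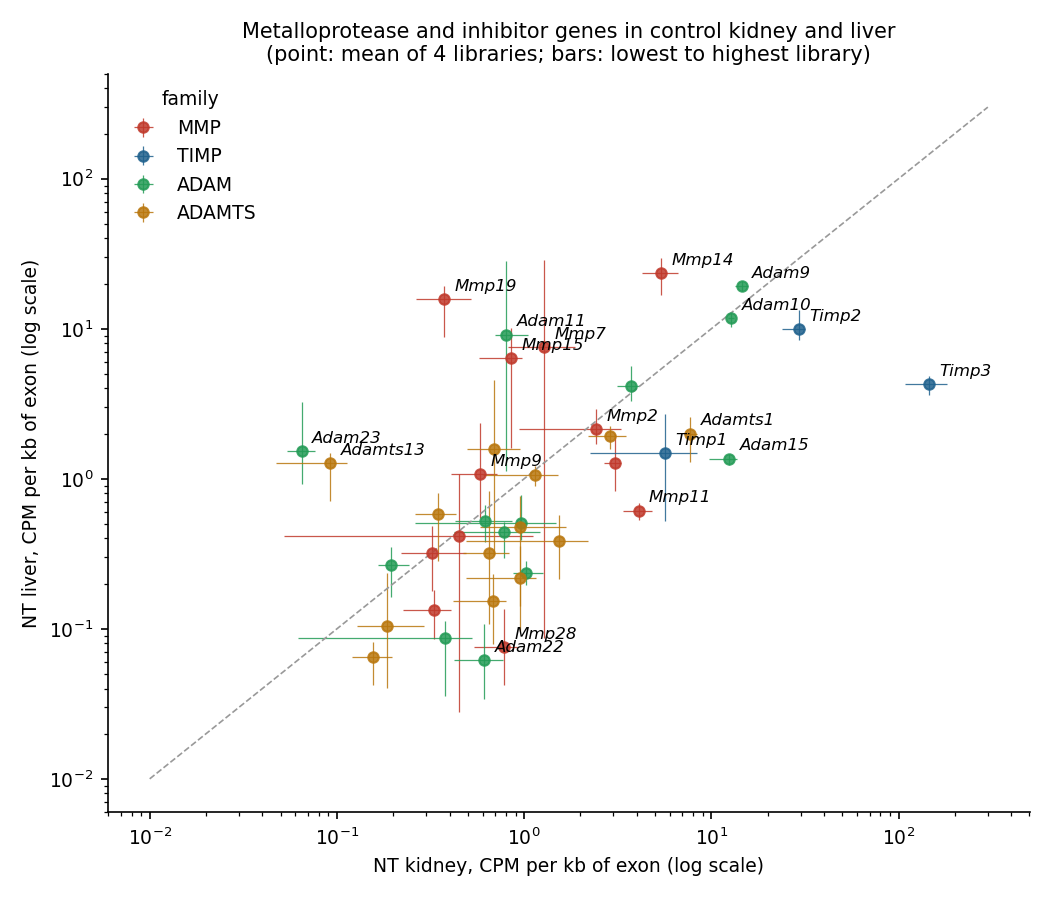
Mean level of 41 members with reads in all 8 NT libraries, in CPM per kb of exon on log axes, in kidney (horizontal) and liver (vertical), coloured by family. Bars run from the lowest to the highest library and the dashed line marks equal levels. Timp3 lies far below the line at 146 CPM per kb in kidney, Mmp14 and Mmp19 lie above it, and the long vertical bars of Adam11 and Mmp7 come from liver NT replicate 4.

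Between NT liver and NT kidney, 32 of 50 tested members differed at an edgeR adjusted p under 0.05, a share like that of all genes tested (64.7%). Of these, 9 were higher in liver, where 30.2% of all genes were, and 23 were higher in kidney, where 34.5% were. By family, 5 MMP genes were higher in liver and 5 in kidney, all 4 TIMP genes were higher in kidney, 3 ADAM genes were higher in liver and 6 in kidney, and 1 ADAMTS gene was higher in liver and 8 in kidney. The median log2 difference (liver minus kidney) was -0.95 over the members and -0.05 over all genes tested. Upper-quartile scaling moved the latter to -0.21, with 34 members called.

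*Timp3* (ENSMUSG00000020044.13, mm10 chr10:86300372-86349506, + strand) measured 1483, 1112, 1281 and 882 CPM in the 4 NT kidney libraries and 32.1, 29.5, 37.5 and 39.5 CPM in NT liver, on the scale of all 16 libraries. The groups lay far apart (log2 difference -5.10, SE 0.22, edgeR adjusted p = 1.28e-11), although 21.3% of its exon bases overlap exons of *Syn3* on the other strand and counting ignored strand. *Timp2* differed by -1.56 (SE 0.15), *Timp1* by -1.91 (SE 0.46) and *Timp4* by -2.65 (SE 1.05), all higher in kidney. *Timp4* rested on single libraries: its 10 liver reads all came from NT replicate 4, 74 of its 109 kidney reads came from NT replicate 4, and without the latter it was at -1.43 and no longer passed (edgeR adjusted p 0.0367 with and 0.222 without that library). Among the proteases higher in kidney were *Adamts16* (-5.63, SE 0.54) and *Adamts8* (-5.61, SE 0.96), an ADAMTS gene with a known link to blood pressure and an anti-angiogenic one. These differences rest on few liver reads: *Adamts16* had 4 and *Adamts8* 2 over the 4 NT liver libraries, against 370 and 199 in kidney. Per effective depth *Adamts8* was 58.0-fold higher in kidney (95% counting interval 15.8 to 482) and *Adamts16* 53.9-fold (20.9 to 199). *Mmp28*, or epilysin, was higher in kidney by 3.32 on the log2 scale (SE 0.46), and *Adam22*, which lacks protease activity and binds LGI proteins, by 3.29 (SE 0.34). A further 6 members had no read in NT liver and between 4 (*Adamts18*) and 46 (*Adam28*) reads over the 4 NT kidney libraries.

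Of the MMP genes, *Mmp8*, *Mmp14*, *Mmp15*, *Mmp19* and *Mmp27* were higher in liver. *Mmp19*, which cuts basement membrane proteins, measured 68.6, 64.7, 57.0 and 31.1 CPM in NT liver and 1.11, 0.939, 1.84 and 1.40 CPM in NT kidney. Its log2 difference was 5.38 (SE 0.33, edgeR adjusted p = 9.38e-10), and 22.3% of its exon bases overlap *Tmem198b* on the other strand. *Mmp14* measured 162, 99.9, 121 and 178 CPM in NT liver and 30.2, 39.5, 33.0 and 25.3 CPM in NT kidney, a difference of 2.13 (SE 0.19). *Mmp15*, another membrane-bound MMP, measured 54.8, 36.1, 38.0 and 8.69 CPM in NT liver and 4.91, 5.12, 5.25 and 3.08 CPM in NT kidney, a difference of 2.90 (SE 0.43). *Mmp8* was at 2.80 (SE 0.97), and at 1.31 without liver NT replicate 4, where it no longer passed (edgeR adjusted p = 0.210). *Mmp27*, a little-studied stromelysin relative, had 189 reads in NT liver and 6 in NT kidney, 54.0-fold more per effective depth (95% counting interval 24.4 to 149). *Adamts13*, the protease that cuts von Willebrand factor and is made by hepatic stellate cells, was higher in liver by 3.77 (SE 0.40). *Adam23*, another ADAM without protease activity, differed by 4.54 (SE 0.42), and *Adam11* by 3.51 (SE 0.81). The liver levels of *Adam11* and *Adam23* were raised by NT replicate 4, in which they were 161 and 57.9 CPM against 6.37 to 23.0 and 16.6 to 17.7 CPM in the others. Without that library the differences were 1.77 and 3.87, and both still passed. With all libraries *Mmp2*, *Adam10* and *Adam17* did not pass, with differences of -0.17 (SE 0.29), -0.12 (SE 0.10) and 0.16 (SE 0.16).

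In kidney, shFos was compared with NT to ask how the families stand when *Fos* is targeted. No member passed (0 of 46 tested, and 0% of all genes tested, at an edgeR adjusted p under 0.05). The sheddases *Adam9*, *Adam10* and *Adam17* and the inhibitor *Timp3* had higher values in shFos kidneys, and *Adam33*, *Mmp11*, *Mmp23* and *Adamts10* lower ones. An unadjusted p under 0.05 was reached by 11 members, 5 higher and 6 lower, which is 23.9% of the members tested against 32% of all genes tested. The libraries of the groups did not overlap for 6 members, where 17.2% of all genes tested did not. Of the members tested 22 were higher and 24 lower, and the median log2 fold change was -0.11 (0.00 over all genes tested). DESeq2 called 7 of the 40 members for which it gave an adjusted p, against 19.7% of all genes. A fit of all 16 libraries called 4 (6.4% of all genes). Of the members' summed level per length, the TIMP genes took 70.7% ± 2.67 (SD, n = 4) in shFos kidneys (66.4% ± 2.55 in NT) and the MMP genes 5.71% ± 0.886 (8.08% ± 0.638 in NT), shares that were not tested. As sums in CPM per kb, the MMP genes were at 21.9 ± 3.45 in NT and 19.5 ± 2.39 in shFos kidneys with overlapping ranges, the TIMP genes at 181 ± 35.3 and 244 ± 34.8, and the ADAM genes at 49.5 ± 3.74 and 60.2 ± 3.33, so that the ADAM share was lower in shFos although its sum was higher. The 3 TIMP genes other than *Timp3* summed to 35.2 ± 5.77 and 35.4 ± 4.48.

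Among the ADAM genes, *Adam9* (ENSMUSG00000031555.15, mm10 chr8:24949611-25016927, - strand), a sheddase with broad substrates, measured 92.2, 78.7, 85.5 and 81.5 CPM in the NT libraries and 109.5, 137, 151 and 154 CPM in the shFos libraries (replicates 1 to 4, scaled within kidney). Every shFos library lay above every NT library, and the log2 fold change was 0.71 (SE 0.12, edgeR adjusted p = 0.0650). *Adam10* (ENSMUSG00000054693.14, mm10 chr9:70678997-70780229, + strand), which cuts Notch and cadherins, measured 90.5, 86.7, 92.0 and 84.8 CPM in NT and 100.2, 121, 107 and 127 CPM in shFos. These groups were also apart, by a smaller step of 0.36 (SE 0.09, edgeR adjusted p = 0.0650). *Adam17*, the TNF-releasing enzyme, measured 41.6, 36.7, 41.0 and 31.0 CPM in NT and 42.1, 46.1, 51.4 and 46.5 CPM in shFos, where the lowest shFos library was just above the highest NT library (0.31, SE 0.11, edgeR adjusted p = 0.102).

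*Adam33*, an ADAM of mesenchymal cells, measured 4.67, 4.45, 3.26 and 6.45 CPM in NT and 2.70, 0.798, 0.644 and 1.23 CPM in shFos. It had the lowest log2 fold change of the members tested in kidney, -1.79 (SE 0.44, edgeR adjusted p = 0.0650), with 287 reads over the NT libraries and 79 over the shFos libraries. *Adam1a*, an ADAM known from testis whose exon bases overlap *Mapkapk5* by 24.0%, measured 11.5, 13.6, 9.25 and 9.09 CPM in NT and 10.9, 3.33, 4.58 and 4.92 CPM in shFos. The first shFos library lay inside the NT range and the other 3 below it (-0.87, SE 0.34, edgeR adjusted p = 0.123). *Adam8*, known from leukocytes, was the third ADAM gene with a lower value and an unadjusted p under 0.05 (-0.82, SE 0.33).

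Among the MMP genes, 9 of 14 tested had higher and 5 lower values, with a median log2 fold change of 0.27. *Mmp11* (ENSMUSG00000000901.17, mm10 chr10:75923222-75936496, - strand), or stromelysin 3, known from stromal cells, measured 15.05, 19.3, 16.9 and 13.0 CPM in NT and 12.7, 8.71, 7.44 and 7.76 CPM in shFos. The groups met closely but did not overlap (-0.81, SE 0.20, edgeR adjusted p = 0.0650). *Mmp23*, a membrane-anchored MMP, measured 10.98, 10.5, 10.5 and 8.64 CPM in NT and 8.10, 7.32, 7.01 and 7.14 CPM in shFos, also without overlap (-0.46, SE 0.13, edgeR adjusted p = 0.0731).

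The MMP genes with the AP-1 element printed above that were tested in kidney had values on both sides of 0, and none passed. *Mmp3* (stromelysin 1) measured 4.01, 3.98, 6.06 and 1.68 CPM in NT and 2.51, 3.66, 1.43 and 3.46 CPM in shFos kidneys. *Mmp7* (matrilysin) measured 1.25, 1.28, 2.35 and 2.77 CPM in NT and 1.41, 2.06, 0.715 and 1.15 CPM in shFos. Both had mean levels below NT but overlapped with it, with log2 fold changes of -0.51 (SE 0.41) and -0.51 (SE 0.40). *Mmp12*, the macrophage elastase, measured 4.996, 3.03, 2.996 and 2.19 CPM in NT and 2.185, 8.18, 5.94 and 7.14 CPM in shFos. *Mmp13*, collagenase 3, measured 4.21, 1.95, 0.456 and 0.193 CPM in NT and 1.285, 2.395, 3.15 and 3.84 CPM in shFos. For *Mmp12* the first shFos library was the lowest of all 8 and the others lay above every NT library, while *Mmp13* spread widely in NT. Their log2 fold changes were 0.82 (SE 0.40) and 0.64 (SE 0.75), and *Mmp10* was too low to be tested. *Mmp9*, the gelatinase of neutrophils and macrophages, stayed near 0 at 0.05 (SE 0.28), the other gelatinase *Mmp2* was at 0.28 (SE 0.33), and *Mmp14* was at -0.17 (SE 0.16). Leaving out NT replicate 4 moved *Mmp2* to 0.01, *Mmp7* to -0.27, *Mmp9* to -0.09, *Mmp13* to 0.27 and *Mmp14* to -0.27.

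The inhibitors differed among themselves. *Timp3* measured 2103, 1597, 1812 and 1217 CPM in NT and 1817, 2541, 2462 and 2824 CPM in shFos kidneys. The first shFos library lay inside the NT range, and the log2 fold change was 0.52 (SE 0.20, edgeR adjusted p = 0.114), or 0.39 without NT replicate 4. The podocyte markers, all 4 of them detected in every group, were also higher: they summed to 316 to 483 CPM in NT and 416 to 846 CPM in shFos. The 7 endothelial markers, all detected, were higher for 6 of 7 (333 to 418 and 425 to 505 CPM). The 7 proximal tubule markers were higher for 7 of 7 (5343 to 16250 and 11590 to 36500 CPM), and the 4 smooth muscle markers for 4 of 4 (167 to 231 and 198 to 295 CPM). The podocyte, endothelial, proximal tubule and smooth muscle sums each ordered the libraries differently from *Timp3*, which was highest in shFos replicate 4. The podocyte sum was highest in shFos replicate 3 (846 CPM) and the smooth muscle sum in shFos replicate 2 (295 CPM). Endothelial markers peaked in shFos replicate 1 (504.5 CPM), where *Timp3* was lowest of the shFos libraries. Proximal tubule markers were at 11590 CPM in shFos replicate 3, below NT replicates 1 to 3. Macrophage markers were lower for 6 of 7 tested, and fibroblast, stellate cell and pericyte markers were higher for 6 of 9. The part of these cell types in the *Timp3* values was not tested. *Timp2* measured 167, 175, 175 and 128.5 CPM in NT and 174.5, 202, 162 and 155 CPM in shFos (0.10, SE 0.13, and 0.01 without NT replicate 4). *Timp1*, the inducible inhibitor, measured 7.63, 10.7, 7.36 and 2.77 CPM in NT and 4.498, 5.32, 4.08 and 5.53 CPM in shFos. Its 3 other NT libraries lay above all shFos libraries and NT replicate 4 below them, with a log2 fold change of -0.55 (SE 0.35) and of -0.82 without that replicate (edgeR adjusted p = 0.0883). *Timp4* was carried by NT replicate 4 (4.77 CPM against 0.404 to 1.11 CPM in the other NT libraries and 0.0715 to 1.06 CPM in shFos). Its log2 fold change of -1.505 (SE 0.83, edgeR adjusted p = 0.242) includes that library.

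Of 15 ADAMTS genes tested 6 were higher and 9 lower. *Adamts10*, which takes part in fibrillin microfibrils, measured 40.95, 32.1, 36.8 and 25.1 CPM in NT and 31.7, 16.1, 13.7 and 13.98 CPM in shFos kidneys. The first shFos library lay inside the NT range and was well above the other 3 (-0.84, SE 0.28, edgeR adjusted p = 0.0876). *Adamts1*, an aggrecan- and versican-cutting enzyme, measured 60.9, 54.7, 63.0 and 52.85 CPM in NT and 64.1, 83.1, 60.1 and 85.8 CPM in shFos, with 1 shFos library inside the NT range (0.34, SE 0.13, edgeR adjusted p = 0.116). The aggrecanases *Adamts4* and *Adamts5* had log2 fold changes of -0.18 (SE 0.27) and 0.58 (SE 0.39), and *Adamts5* was 7.28 CPM in NT replicate 4 against 23.4 to 33.5 CPM in the other NT libraries. Without that library *Adamts5* was at 0.28.

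**Figure D2:**
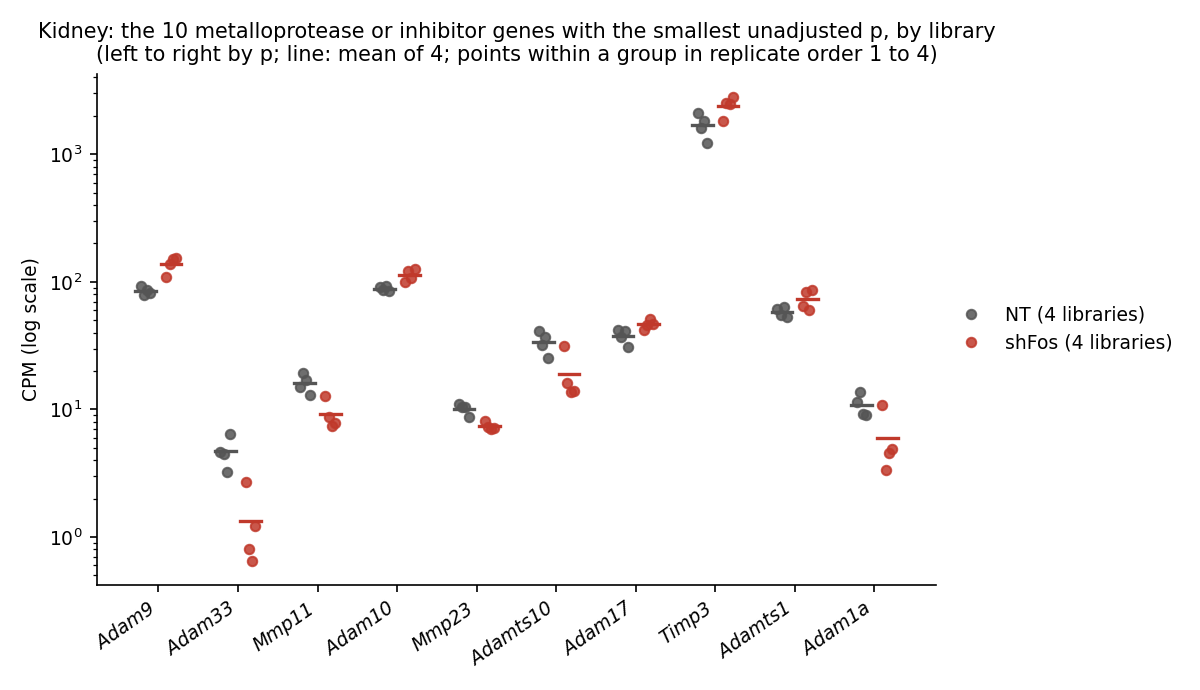
CPM on a log axis, scaled within kidney, of the 10 members with the smallest unadjusted p in kidney, in the 4 NT (grey) and 4 shFos (red) libraries, with lines at the means. Adam9, Adam10 and Adam17 sit higher and Adam33, Mmp11 and Mmp23 lower in every shFos library than in every NT library. Of the shFos libraries the first lies closest to the NT mean for each gene drawn except Adamts1.

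The kidney values were compared without single libraries and after a correction for base composition. Without shFos replicate 1, 9 members passed, where 27.8% of all genes did: *Adam9*, *Adam10*, *Timp3* and *Mmp12* higher, and *Adam33*, *Mmp11*, *Mmp23*, *Adamts10* and *Adam1a* lower. *Adam33* was then at -2.44 and *Adamts10* at -1.25. The 5 members that were higher with an unadjusted p under 0.05 had a median GC content of 46.6% and the 6 lower ones of 57.4%, and over all genes tested the medians were 45.8% and 54.0%. After a correction for GC content per library *Adam9* was at 0.61, *Adam10* at 0.19 (edgeR unadjusted p = 0.0603), *Adam17* at 0.18, *Mmp11* at -0.64, *Mmp23* at -0.23 (edgeR unadjusted p = 0.111) and *Adam33* at -1.61. *Timp3* was at 0.43 (edgeR unadjusted p = 0.0534) and *Adam8* at -0.68 (edgeR unadjusted p = 0.0617). *Adam1a* moved away from 0 to -0.93, *Adamts1* was at 0.31 and *Adamts10* at -0.64. Among these members *Adam9*, *Adam33*, *Mmp11*, *Adam1a*, *Adamts1* and *Adamts10* kept an unadjusted p under 0.05. *Adam10*, *Adam17*, *Mmp23*, *Timp3* and *Adam8* did not.

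**Figure D3:**
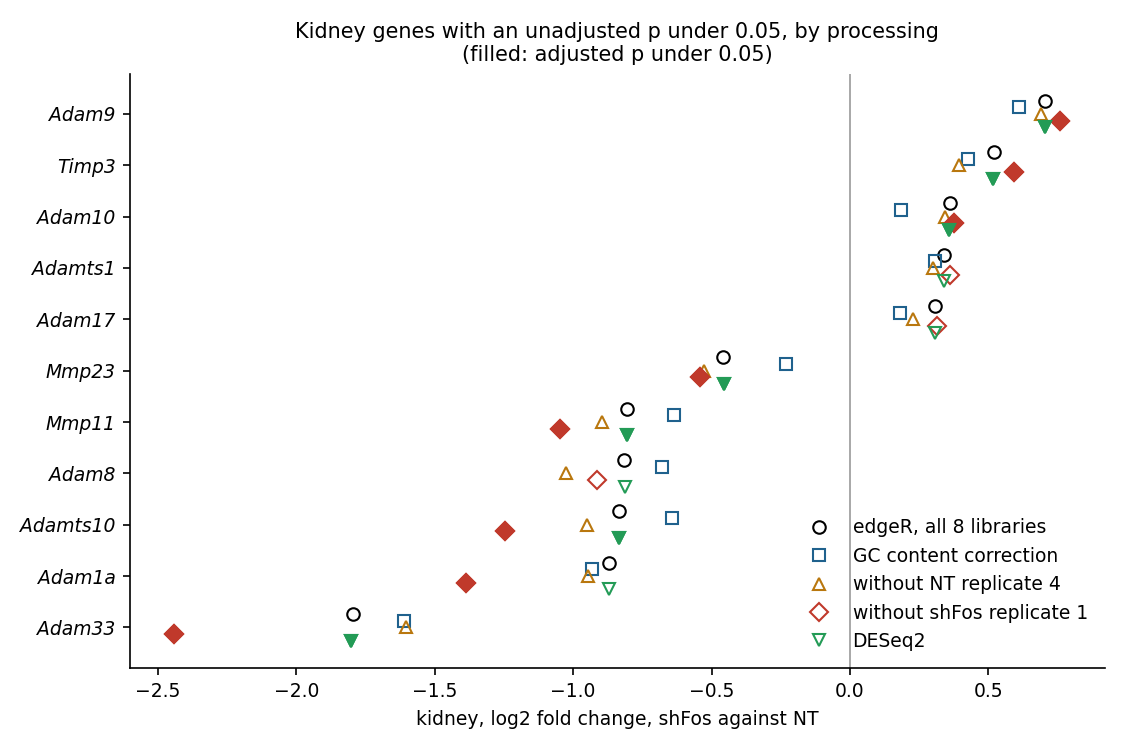
Log2 fold change in kidney (shFos against NT) of the 11 members with an unadjusted p under 0.05, for edgeR with all 8 libraries, after a GC content correction, without NT replicate 4, without shFos replicate 1 and by DESeq2. Filled symbols mark an adjusted p under 0.05. Each member keeps its side of 0, and the calls come from DESeq2 and from the fit without shFos replicate 1.

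In liver, no member passed either (0 of 39 tested and 0% of all genes tested by edgeR). DESeq2 called 0 of the 32 members with an adjusted p, and 0.306% of all genes. An unadjusted p under 0.05 was reached by 6 members, against 6.82% of all genes tested, 3 of them higher (*Timp3*, *Mmp11*, *Adamts2*) and 3 lower (*Adam10*, *Mmp14*, *Mmp9*). The groups did not overlap for 5 members, against 4.31% of all genes tested. The median log2 fold change was 0.11 over the members and -0.01 over all genes tested, and the smallest edgeR adjusted p of a member was 0.685.

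*Timp3* measured 23.0, 20.9, 26.65 and 27.9 CPM in NT livers and 33.0, 35.1, 43.6 and 34.3 CPM in shFos livers (scaled within liver). All shFos libraries lay above all NT libraries, with a log2 fold change of 0.57 (SE 0.13) that was 0.62 without NT replicate 4. *Adam10* measured 45.65, 35.65, 43.4 and 38.95 CPM in NT and 28.7, 33.3, 30.1 and 32.1 CPM in shFos. Here all shFos libraries were the lower ones (-0.40, SE 0.11, edgeR adjusted p = 0.702). *Adam9* and *Adam17* were at 0.03 (SE 0.10) and 0.11 (SE 0.19), and without NT replicate 4 at -0.01 and -0.0042.

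Among the liver MMPs, *Mmp14* measured 116, 70.8, 86.4 and 126 CPM in NT and 68.1, 75.1, 58.2 and 75.8 CPM in shFos, so that 1 NT library lay within the shFos range (-0.52, SE 0.19). *Mmp11* measured 1.12, 1.04, 1.35 and 1.32 CPM in NT and 2.02, 1.78, 1.53 and 1.675 CPM in shFos, from 86 and 122 reads. The groups did not overlap, and its log2 fold change was 0.53 (SE 0.22). *Mmp8* and *Mmp9*, the collagenase and gelatinase of neutrophil granules, were carried by NT replicate 4. *Mmp8* measured 0.726, 1.21, 0.312 and 6.09 CPM in NT and 1.18, 0.278, 0.2935 and 0.299 CPM in shFos. *Mmp9* measured 1.45, 1.385, 2.08 and 5.875 CPM in NT and 1.515, 0.8335, 1.41 and 0.598 CPM in shFos. The log2 fold changes were -2.01 (SE 0.92) and -1.31 (SE 0.53), and -0.54 and -0.61 without that library. The neutrophil markers, 8 of 8 detected in each liver group and none at 0 throughout, were also highest in NT replicate 4. They summed to 27.25, 48.3, 14.4 and 161 CPM in NT and to 45.96, 6.72, 8.45 and 4.61 CPM in shFos. Their sum was the lowest of NT in replicate 3, where *Mmp9* was above NT replicates 1 and 2. The macrophage and Kupffer cell markers were highest in NT replicate 3 (1883 CPM) and lower in shFos livers for 10 of 10 (median -0.68). The part of both cell types in the *Mmp8* and *Mmp9* values was not tested. *Mmp2* was at 0.34 (SE 0.19) and *Mmp12* at 0.23 (SE 0.37), or 0.49 without NT replicate 4, while *Mmp3*, *Mmp7* and *Mmp13*, which carry the AP-1 element, were too low for the test. *Mmp7* measured 21.75 CPM in NT replicate 4 and at most 0.577 CPM in the other NT livers.

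Of the liver ADAMTS genes, *Adamts2*, the procollagen N-proteinase, measured 5.94, 8.02, 7.55 and 6.40 CPM in NT and 8.42, 9.95, 9.04 and 8.375 CPM in shFos. *Adamts13* measured 5.01, 5.13, 5.205 and 2.49 CPM in NT and 5.78, 6.06, 7.63 and 6.22 CPM in shFos. For both, all shFos libraries were above all NT libraries, with log2 fold changes of 0.36 (SE 0.14) and 0.53 (SE 0.24), the latter 0.31 without NT replicate 4. *Adamts1*, *Adamts4* and *Adamts5* were at -0.15 (SE 0.23), -0.06 (SE 0.40) and 0.38 (SE 0.29), and without NT replicate 4 at -0.05, 0.26 and 0.17. The fibroblast and stellate cell markers, 9 of 9 detected, summed to 229 to 371 CPM in NT and 362 to 497 CPM in shFos livers, and their part in these values was not tested. *Timp1* was at -0.60 (SE 0.54), or -0.16 without NT replicate 4, and *Timp2* at 0.18 (SE 0.15).

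**Figure D4:**
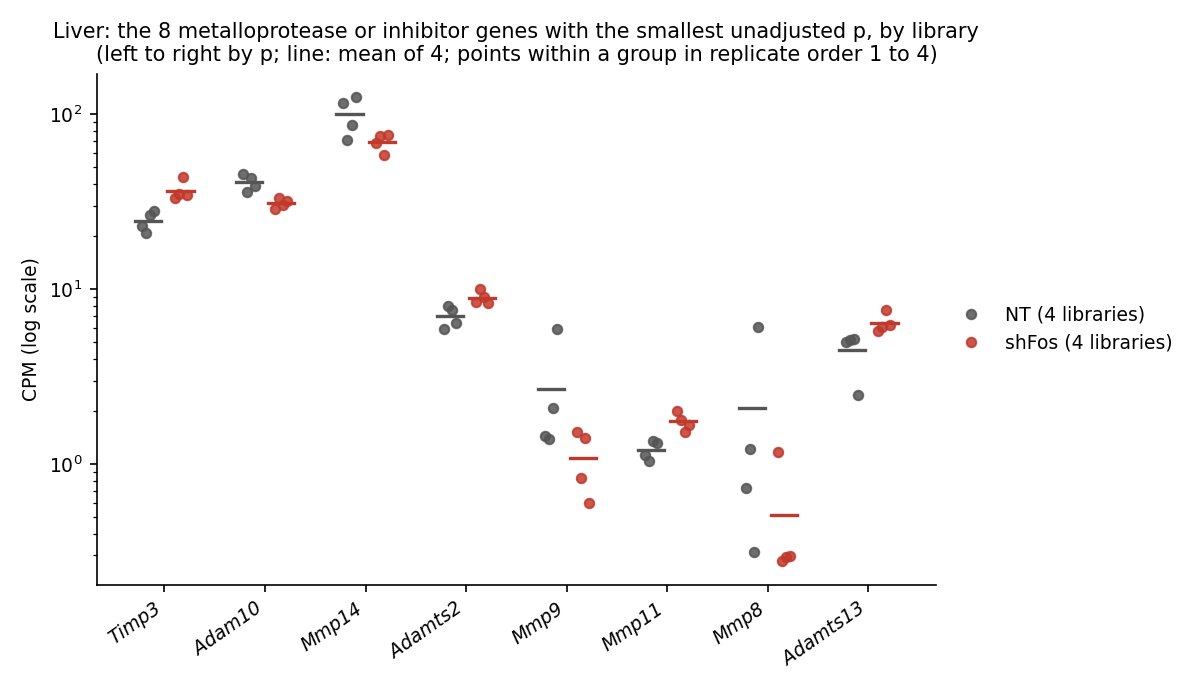
CPM on a log axis, scaled within liver, of the 8 members with the smallest unadjusted p in liver, in the 4 NT (grey) and 4 shFos (red) libraries, with lines at the means. Timp3, Adamts2, Mmp11 and Adamts13 are higher and Adam10 lower in every shFos library, while the NT means of Mmp8 and Mmp9 are pulled up by replicate 4 (6.09 and 5.875 CPM).

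Whether a member responded differently in the tissues was tested by the difference of the changes (liver minus kidney). No member passed (0 of 50 tested and 0% of all genes tested by edgeR), and 10 had an unadjusted p under 0.05, against 16.1% of all genes tested. DESeq2 called 3 of the 24 members with an adjusted p (*Adam10*, *Adam9*, *Mmp11*), against 2.95% of all genes. Without kidney shFos replicate 1 edgeR called 6, against 7.88% of all genes. *Adam10* was the member with the smallest p: it was higher in every shFos kidney and lower in every shFos liver, and the difference was -0.74 (SE 0.14, edgeR adjusted p = 0.180). *Mmp11* had the opposite pattern, lower in kidney and higher in liver, with a difference of 1.35 (SE 0.29, edgeR adjusted p = 0.180). *Adam9* differed by -0.65 (SE 0.15), *Adam33* by 1.96 (SE 0.53) and *Adamts10* by 1.02 (SE 0.35). *Timp3* was higher in shFos in both tissues, and its difference was 0.06 (SE 0.26). Of 36 members tested in both tissues 12 were higher in both, 9 lower in both, 6 higher in kidney and lower in liver, and 9 lower in kidney and higher in liver.

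**Figure D5:**
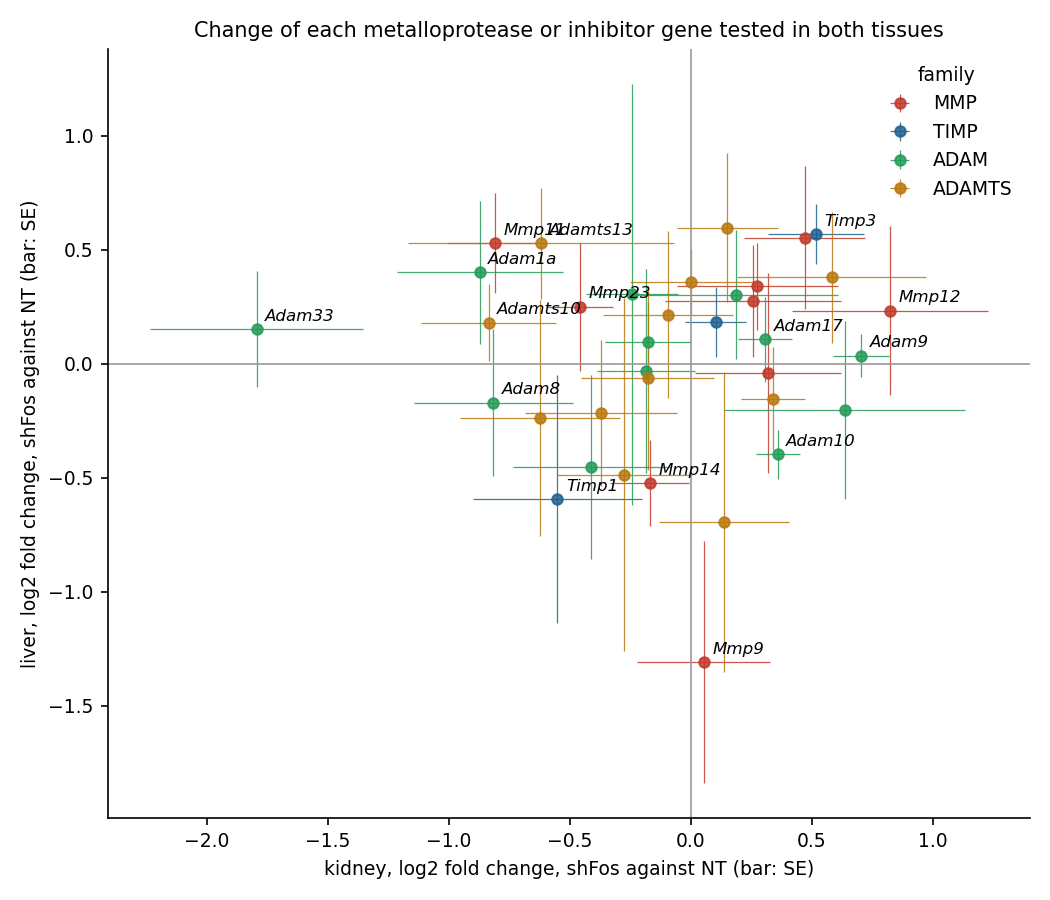
Log2 fold change (shFos against NT) in kidney (horizontal) and liver (vertical) of the 36 members tested in both tissues, with SE bars, coloured by family. Adam10 lies in the lower right and Mmp11 in the upper left quadrant, Timp3 in the upper right, and Mmp9 is the lowest point at -1.31 in liver with a wide bar.

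Other genes of the pathway were taken from lists of 89 genes, of which 79 were tested in kidney and 71 in liver. None passed in either tissue by edgeR. At an unadjusted p under 0.05 there were 9 higher and 5 lower of the 79 in kidney, where 32% of all genes tested reached it. In liver there were 12 higher and 3 lower of the 71, where 6.82% of all genes tested did. The matrix proteins on which these proteases act were mostly higher in shFos livers, 18 of 21 tested, with 8 at an unadjusted p under 0.05 and a median log2 fold change of 0.44. Among them were the laminin chain *Lamb1* (0.63, SE 0.15), the collagen chain *Col1a2* (0.85, SE 0.27) and the matrix glycoprotein *Sparc* (0.59, SE 0.19). Fibroblast, stellate cell and pericyte markers were higher for 8 of 9 (median 0.56). However, *Dcn*, *Col1a1*, *Col1a2* and *Col3a1* stand in both lists, so for these genes the agreement was fixed in advance. Smooth muscle markers were higher for 3 of 3 tested (median 1.22). Endothelial markers were higher for 4 and lower for 3 of 7 tested (median 0.11). The smooth muscle markers summed to 7.92 to 22.9 CPM in NT and 25.96 to 39.0 CPM in shFos livers. The part of these cell types in the matrix genes was not tested. In kidney 15 of 22 were higher, 2 at an unadjusted p under 0.05. The iRhom genes *Rhbdf1* and *Rhbdf2*, whose proteins bring ADAM17 to the cell surface, were at -0.69 (SE 0.15) and -0.25 (SE 0.11) in kidney. *Plat*, the tissue plasminogen activator of the cascade that activates MMP precursors, was at 0.64 (SE 0.11) in kidney. Of 16 ADAM10 and ADAM17 substrates tested in kidney 9 were higher and 7 lower, and those with an unadjusted p under 0.05 were *App* (0.49, SE 0.12), *Kl*, the kidney hormone Klotho (0.57, SE 0.17), *Tgfa* (0.50) and the adhesion molecule *Icam1* (-0.37, SE 0.14). In liver 4 of 16 were higher and 12 lower, and those with an unadjusted p under 0.05 included the chemokine *Cx3cl1* (0.72, SE 0.22) and the TNF receptor *Tnfrsf1a* (-0.65, SE 0.16). The ADAMTS-like genes, which lack the protease domain, were higher in liver for 6 of 7 tested, with *Adamtsl1* at 0.86 (SE 0.20).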

How the data were processed

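Total RNA was extracted from frozen tissue and sequenced as paired ends; how RNA was selected is not given in the sources used here. The authors trimmed reads with Trimmomatic 0.39, aligned them to mm10 with HISAT2 2.2.1 and counted them per gene with HTSeq 0.12.4, ignoring strand, per the labels' processing notes and the study's methods. The deposited files hold raw read counts for 24984 symbols in 16 libraries, 4 for each tissue and treatment. HTSeq's summary lines, which name no gene, were left out. Reads on no gene were 22.1% to 26.7% of the reads in kidney and 13.4% to 15.7% in liver. Ambiguous reads, at 1.84% to 2.64%, were discarded by the counting, and 12 of 66 members share exon bases with another counted gene, so values of overlapping genes and close paralogs are uncertain.

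Quasi-likelihood tests of each tissue were run with edgeR 4.0.16 under R 4.3.3, after filterByExpr, with TMM factors and robust dispersions. The tissue difference and the difference of the changes came from 1 fit of all 16 libraries, where TMM factors were 1.32 to 1.48 in kidney and 0.626 to 0.783 in liver. P-values were adjusted by Benjamini-Hochberg over all genes tested and called under 0.05. The SE is the absolute log2 fold change over the square root of F. The scripts were tested on simulated data. Positions, exon lengths and GC content came from GENCODE M21 (98.2% of symbols, all 66 members), and promoters from RefSeq GRCm38.p6. Alternatives were DESeq2 1.42.0, upper-quartile scaling, no filter, a filter at a mean count of 10, fitting the 16 libraries together, the newer edgeR dispersion, a GC content correction (lowess, span 0.3), a block for the replicate number, and leaving out single libraries. Blocks for the tissue comparison were added after seeing the data.

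The members, the gene lists and the tests were chosen with earlier results of these data known. Members named with values are 16 fixed genes, the 10 with the smallest p in kidney, 8 in liver and 5 for the difference of the changes, and the 5 with the largest tissue difference each way. *Adam8*, *Adam15*, *Mmp15* and pathway genes were named after their values were seen. Deviations of same-numbered NT kidney and NT liver libraries correlated at 0.136 to 0.346, and those of differently numbered ones at -0.354 to 0.183. The ranges overlap, so the pairing is not shown for every number. Same-numbered libraries were taken as pairs in the blocked tissue fits. Between treatments the same-numbered values were -0.261 to 0.116, and between shFos kidney and liver 0.043 to 0.146, so the main fits assumed no pairing. The replicate block fits did group same-numbered libraries there, and they are given only as alternatives.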

Additional observations from a re-analysis of the deposited data

Results flagged for a closer look

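Among 124 groups of 4 libraries with enough reads, 16 held a library that stood apart from the other 3 by Dixon's test, and chance alone gives 6.2. In NT liver, replicate 4 was the library that stood apart for 6 genes. It was high for *Adam11* (114 CPM against 4.55 to 16.3 CPM in the others), *Adam23* (40.9 against 11.9 to 12.6), *Mmp7* (21.75 against 0.066 to 0.577), *Mmp8* (6.09 against 0.312 to 1.21) and *Mmp9* (5.875 against 1.385 to 2.08), and low for *Adamts13* (2.49 against 5.01 to 5.205). Its neutrophil markers summed to 161 CPM and its hepatocyte markers to 43940 CPM, the highest and the lowest of the NT livers, and their part in these values was not tested. In NT liver replicate 3, *Timp2* was 36.85 CPM against 23.35 to 25.4 CPM.

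In NT kidney, replicate 4 stood apart for *Adamts8* (0.387 CPM against 4.04 to 4.43), *Timp2* (128.5 against 167 to 175) and *Timp4* (4.77 against 0.404 to 1.11). Replicate 2 was high for *Adam11* (8.49 against 5.48 to 5.98 CPM) and replicate 1 low for *Adamts13* (0.329 against 0.717 to 0.773 CPM). In shFos kidney, replicate 1 was high for *Adamts10* (31.7 against 13.7 to 16.1 CPM).

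In shFos liver, *Adam1a* was 2.70 CPM in replicate 3 (1.20 to 1.39 in the others), *Mmp13* 0.722 CPM in replicate 2 (0.337 to 0.359) and *Mmp8* 1.18 CPM in replicate 1 (0.278 to 0.299), where the neutrophil markers summed to 45.96 CPM against 4.61 to 8.45 CPM.

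The change in liver minus the change in kidney was -0.74 on the log2 scale for *Adam10* and 1.35 for *Mmp11*. For both genes every shFos library lay on one side of NT in kidney and on the other side in liver, and the test of the difference gave an edgeR adjusted p of 0.180, which misses the threshold.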

How the results depend on the processing

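The count of kidney members called was 0 with edgeR, 7 by DESeq2, 4 in the fit of all 16 libraries and 0 to 9 with a library left out, where the 9 came without shFos replicate 1. For the difference of the changes it was 0, 3 by DESeq2 and 0 to 6 with a library left out, again from kidney shFos replicate 1. Members with an unadjusted p under 0.05 numbered 7 to 16 in kidney, 3 to 9 in liver and 6 to 11 for the difference with a library left out, and 3 in liver with the replicate block. In liver the call count stayed 0 in all alternatives, and in the tissue comparison it ran from 28 to 38. Blocking the tissue comparison by replicate number gave 32 members called, 33 with the block within treatment and 30 in the 8 NT libraries with the block, and the block changed no other call. The direction turned for *Mmp9* in kidney (-0.0066 with upper-quartile scaling, -0.088 to 0.18 with a library left out), *Adam17* in liver (-0.0042 to 0.30 with a library left out) and *Adamts4* in liver (0.014 with the replicate block, -0.30 to 0.26 with a library left out), all with SEs larger than the value. The cause was not tested. Of 986 values of members under alternatives, each in the comparison that named it, 9 reversed, 28 newly passed and the rest kept direction and side of the threshold. For the tissue comparison this count covers only the 10 members with the largest differences. It leaves out others such as *Timp4* and *Mmp8*, which no longer passed without kidney NT replicate 4 and liver NT replicate 4. Depth limits what can be seen of members near 3 reads, or 0.164 to 0.211 CPM.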
